A study of Mus musculus with 4 samples.

Results

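Glucose enters a pancreatic beta cell through membrane transporters and is trapped inside by phosphorylation to glucose-6-phosphate, and these steps were followed here through 9 genes. The list, set by gene symbol, holds 3 hexose transporters (Slc2a1, Slc2a2, Slc2a3), 2 hexokinases (Hk1, Hk2), 2 catalytic subunits of glucose-6-phosphatase (G6pc2, G6pc3), the transporter that carries glucose-6-phosphate into the endoplasmic reticulum (Slc37a4) and the glucose-responsive transcription factor ChREBP (Mlxipl). Each symbol matched 1 row of a table of 55487 genes, and all 9 were among the 16589 genes with enough reads to be tested. RNA had been sequenced from islets of C57BL/6 mice aged 30 weeks in 4 libraries: 2 from Ggcx flox/flox animals without a Cre transgene (control) and 2 from Ggcx flox/flox; Pdx1-Cre animals (knockout), every library pooling 2 mice. Both genotypes carry the floxed Ggcx alleles, and no library carried Pdx1-Cre with an intact Ggcx gene, so an effect of the transgene and an effect of losing Ggcx cannot be told apart. The Pdx1 promoter is active across the pancreatic lineage, so recombination is not limited to beta cells.

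Libraries held 47624630 to 51756221 reads assigned to genes. The normalized read count of Ggcx, the targeted gene, was 3971 and 3981 in control against 234 and 643 in knockout libraries, far lower in both knockout libraries, and the labels held for all 4. The islet markers Ins1, Ins2, Iapp, Gcg and Sst were detected at high counts in every library, from 118131 for Sst to 6615640 for Ins2. The control libraries go by the numbers of their columns, 2 and 3, which are not the replicate numbers that the labels use. The p-values rest on the spread between pools of 2 mice, with 2 pools per genotype. In limma much of that spread is borrowed from other genes (6.85 prior degrees of freedom beside 2 residual).

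As background, rodent beta cells take up glucose mainly through the high-capacity, low-affinity transporter GLUT2, the product of Slc2a2, while GLUT1 (Slc2a1) and GLUT3 (Slc2a3) bind glucose more tightly and serve many other cells. The hexokinases HK1 and HK2 phosphorylate glucose even when it is scarce and are inhibited by their own product, and mature beta cells are known for keeping both low. G6PC2 sits in the membrane of the endoplasmic reticulum of islet cells and hydrolyses glucose-6-phosphate back to glucose, which opposes phosphorylation. Its relative G6PC3 is made in nearly all tissues, and the SLC37A4 transporter supplies the substrate to these enzymes. ChREBP, together with its partner MLX, binds paired E-box-like motifs in the promoters of target genes such as Txnip when glucose is high.

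The 9 transcripts covered a wide range of abundance, and their order was the same in both genotypes. Levels of different genes are compared here as reads per kilobase of annotated exon, relative to the total reads of the library (RPKM, or length-scaled level). G6pc2 was far above the rest, at 1772 and 1835 in control against 1956 and 1793 in knockout libraries, and ranked 16 among all tested genes. Slc2a2 followed at 112 and 114 in control against 98.0 and 102 in knockout libraries, rank 238. The length-scaled level of Mlxipl was 29.9 and 29.4 in control against 25.9 and 29.3 in knockout libraries, and that of Slc37a4 was 24.1 and 21.3 in control against 23.0 and 23.8 in knockout libraries. These neighbours in the order came closest to each other: the lowest Mlxipl library was at 25.9 and the highest Slc37a4 library at 24.1. G6pc3 stood at 14.8 and 13.9 in control against 13.7 and 14.6 in knockout libraries. The widely expressed transporter and hexokinase genes were lower still, with length-scaled levels of 3.25 and 3.93 in control against 3.19 and 3.39 in knockout libraries for Slc2a1. Hk1 was at 1.07 and 1.29 in control against 1.30 and 1.23 in knockout libraries. Slc2a3 was at 0.436 and 0.396 in control against 0.545 and 0.611 in knockout libraries, and Hk2 closed the order at 0.0346 and 0.0298 in control against 0.0633 and 0.0291 in knockout libraries, rank 16426 of 16589. No gene overlapped with the next one in the order in any library, and the order was the same when the longest coding transcript was taken as the length of each gene.

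**Figure D1:**
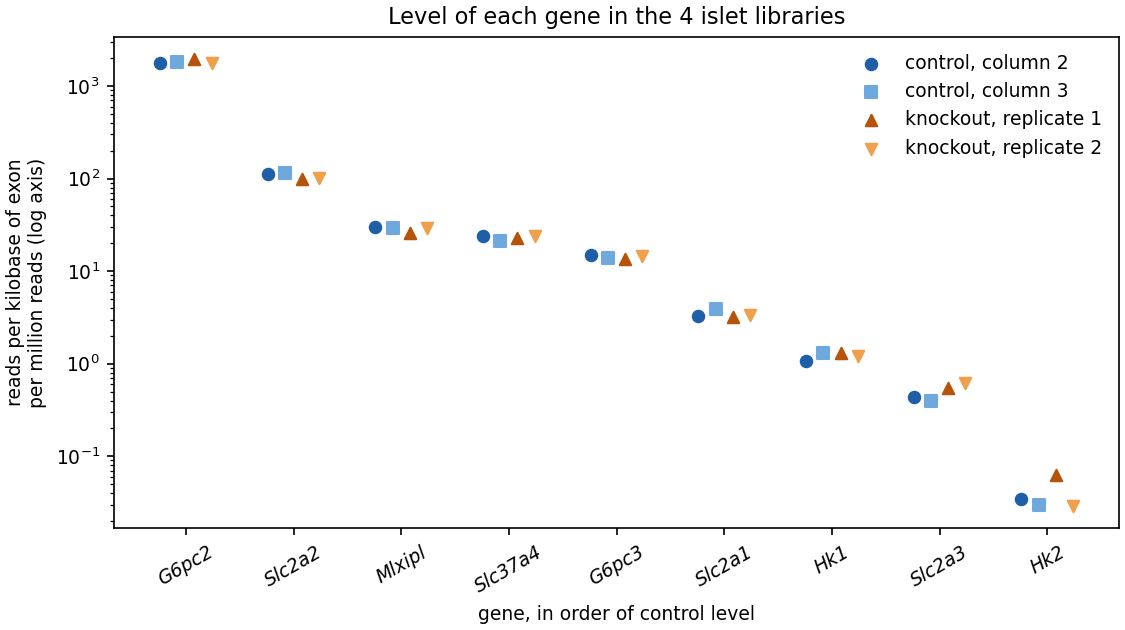
Length-scaled level (RPKM, log axis) of the 9 genes in each library, with control libraries in blue and knockout libraries in orange. G6pc2 lies near 1804 and Hk2 near 0.0322 in controls. For most genes the 4 libraries lie close together beside the distance to the next gene, but Mlxipl and Slc37a4 nearly meet.

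Promoter sequences show what precedes the start sites of the 2 most abundant members, Slc2a2 and G6pc2, and where E-box letters stand before Mlxipl and the ChREBP target Txnip. The RefSeq table on GRCm38.p6 held 8 of the 9 genes (Slc2a3 was the one without an entry), and the 250 bases before an annotated start are printed 5′ to 3′ on the strand of the gene. Capitals mark the palindromic E-box CACGTG or a paired motif (CACGNG, any 5 bases, CACGNG), each searched on both strands. 
Slc2a2, chr3:28697653-28697902, plus strand: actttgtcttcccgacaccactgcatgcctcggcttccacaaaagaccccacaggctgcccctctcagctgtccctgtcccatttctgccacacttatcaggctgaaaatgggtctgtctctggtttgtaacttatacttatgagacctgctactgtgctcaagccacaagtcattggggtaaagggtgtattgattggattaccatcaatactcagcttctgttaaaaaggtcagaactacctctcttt
G6pc2, chr2:69210823-69211072, plus strand: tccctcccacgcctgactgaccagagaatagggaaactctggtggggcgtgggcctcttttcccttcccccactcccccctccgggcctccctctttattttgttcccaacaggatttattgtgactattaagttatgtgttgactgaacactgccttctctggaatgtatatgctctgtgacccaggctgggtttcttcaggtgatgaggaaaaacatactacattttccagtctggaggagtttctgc
Mlxipl, chr5:135089640-135089889, plus strand: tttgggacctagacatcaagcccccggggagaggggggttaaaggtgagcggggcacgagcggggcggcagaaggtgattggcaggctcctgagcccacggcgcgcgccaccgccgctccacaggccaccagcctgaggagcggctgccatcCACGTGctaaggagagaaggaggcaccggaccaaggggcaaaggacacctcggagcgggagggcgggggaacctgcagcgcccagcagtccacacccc
Txnip, chr3:96557707-96557956, plus strand: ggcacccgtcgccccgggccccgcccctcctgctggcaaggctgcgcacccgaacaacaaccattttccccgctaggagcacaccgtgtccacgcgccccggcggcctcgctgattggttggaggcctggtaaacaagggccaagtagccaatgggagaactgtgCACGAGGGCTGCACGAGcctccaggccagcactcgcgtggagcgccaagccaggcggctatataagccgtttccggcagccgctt
Slc2a2 and G6pc2 have neither motif in this window. Mlxipl has CACGTG starting at base -98 from the annotated start shown and none before its other RefSeq start, and G6pc3, whose window is not printed because other annotated transcripts start inside it, has it at -99 and -79. Of 32817 windows of the same length, 6.02% hold CACGTG. The paired motif stands before Txnip, starting at base -85, and in 15 windows in all (0.0457%). No window of the 8 genes holds the pair in this direct arrangement, nor do those of the ChREBP targets Arrdc4 and Pklr. Arrdc4 has CACGTG at base -193, and Pklr has no CACGTG. The inverted arrangement (CACGNG, any 5 bases, CNCGTG) was not part of the search, so the absences and shares given here do not cover it. It is given below for a Pklr window only, and whether other windows hold it is not given here. A Pklr window (chr3:89136373-89136622, plus strand) holds that arrangement, as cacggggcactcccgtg. A match describes the letters of the window and says nothing of binding, and a window without one says only that these letters are not in it.

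Comparing knockout with control islets, none of the 9 transcripts passed the test at an adjusted p under 0.05 (limma across all tested genes, Benjamini-Hochberg), and edgeR and DESeq2 also called 0 of the 9. Over all genes 0.247% of tested genes were called higher in knockout islets and 0.374% lower, so 0 of 9 in either direction is near that background. Higher genes made up 39.8% of all calls, and 50.9% with library upper quartiles made equal. The median log2 fold change of the 9 was 0.06, against 0.00023 over all tested genes. Of the 9, 2 had an unadjusted p under 0.05, namely Slc2a2 and Slc2a3, and the same holds for 2336 of all 16589 tested genes. These 2 were also the members whose genotypes did not overlap: Slc2a3 was higher in both knockout libraries, as were 22.0% of tested genes, and Slc2a2 lower in both, as were 23.0%. Shares of that size mean that 1 gene of 9 in each direction is no more than the table as a whole shows.

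**Figure D2:**
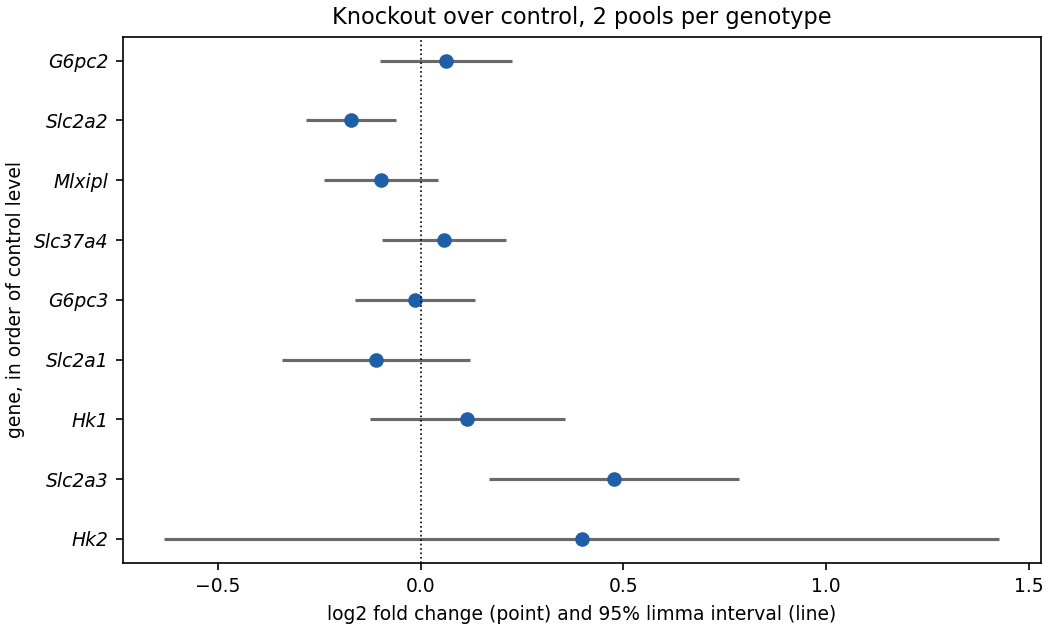
Log2 fold change, knockout over control, of each gene (point) with its 95% interval from limma, not adjusted for the number of genes (line), for 2 pools per genotype. The intervals of Slc2a2 and Slc2a3 lie to one side of 0, the other 7 include 0, and that of Hk2 is the widest.

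Among the transporters, Slc2a2 (ENSMUSG00000027690; GRCm38 chromosome 3, 28697903 to 28731359, plus strand) had normalized read counts of 31910 and 32334 in control against 27942 and 29092 in knockout libraries. Both knockout libraries lay below both control libraries, by a modest margin. The means were 32122 ± 300.1 and 28517 ± 813 (SD, n = 2 each), a ratio of 0.888-fold (95% interval 0.822 to 0.959). The log2 fold change was -0.17 ± 0.05 (SE; limma adjusted p = 0.155), and over the 14 alternatives the adjusted p ran from 0.113 to 0.55. It stayed between -0.20 and -0.14 with each library left out in turn. In the authors' deposited table the log2 difference, turned to knockout over control, was -0.17 with an adjusted p of 0.0873. In bulk islets fewer cells of a type and less RNA per cell cannot be told apart. The beta-cell marker list stood beside this result with 0 of 7 genes called by limma, edgeR or DESeq2 (0 at an unadjusted p under 0.05), a median log2 fold change of 0.02 and no marker at 0. Summed counts were 10663500 and 10153900 in control against 10682700 and 11006500 in knockout libraries, and most of each sum is Ins1 and Ins2. Single log2 fold changes were 0.12 for Ins1, 0.04 for Ins2, 0.03 for Iapp and 0.02 for Slc30a8. Those of Ucn3, Nkx6-1 and Mafa were -0.06, -0.09 and -0.13.

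Slc2a1 (ENSMUSG00000028645; chromosome 4, 119108711 to 119137983, plus strand) had normalized counts of 563 and 678 in control against 555 and 589.7 in knockout libraries. The genotypes overlapped, and the 2 control libraries lay farther apart than the 2 knockout libraries. The knockout mean was 0.926-fold (95% interval 0.789 to 1.09) of the control mean (log2 fold change -0.11 ± 0.10, limma adjusted p = 0.696). Without control column 3 the log2 fold change changed sign, to 0.023. Exons of Slc2a1 and of the opposite-strand gene Gm12868 overlap over 105 bases, and Gm12868 had a normalized count of at most 1.92 in any library.

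Slc2a3 (ENSMUSG00000003153; chromosome 6, 122727809 to 122801640, minus strand) was low, with normalized counts of 156 and 141 in control against 196 and 219.6 in knockout libraries. Both knockout libraries lay above both controls. Means were 149 ± 10.7 and 208 ± 16.9 (SD, n = 2 each), a ratio of 1.39-fold (95% interval 1.12 to 1.72). Its log2 fold change of 0.48 ± 0.14 was the largest of the 9 in limma with all libraries and did not pass (limma adjusted p = 0.152; 0.125 to 0.545 over the alternatives). Hk2, with few reads, was larger in edgeR (0.51 against 0.49 for Slc2a3) and in DESeq2 (0.53 against 0.48). With single libraries left out the log2 fold change of Slc2a3 ranged from 0.39 to 0.56. Marker genes of other cell types give the following values in the same libraries. In the stellate and fibroblast list all 7 genes were higher in both knockout libraries, beside 22.0% of all tested genes. Of the 7, 1 (Dcn) passed the test, beside 0.247% of all tested genes called higher. The list had a median of 0.81 (0.44 without knockout replicate 1) and no marker at 0. Its summed counts were 2048 and 1543 in control against 3319 and 2443 in knockout libraries. In the Schwann cell list all 4 were higher in both, beside the same 22.0%, and 0 were called by limma, edgeR or DESeq2 (0 at an unadjusted p under 0.05). The list had a median of 0.63 (0.27 without control column 2) and summed counts of 201 and 232 in control against 275 and 273 in knockout libraries. The part of these cells in the Slc2a3 difference was not tested. In the delta-cell list all 4 genes were higher in both knockout libraries, again beside 22.0% of all tested genes, with a median of 0.12. Of the 4, 1 (Rbp4) passed the test, beside 0.247% of all tested genes called higher. Endothelial markers had a median of 0.09 (-0.03 to 0.22 with 1 library left out) with 0 of 7 called (1 at an unadjusted p under 0.05), and summed counts of 24290 and 21212 in control against 23000 and 24775 in knockout libraries. Macrophage markers had a median of -0.01 (-0.19 to 0.22) with 0 of 5 tested genes called (0 at an unadjusted p under 0.05), and summed counts of 1749 and 1582 in control against 1627 and 1847 in knockout libraries, with the genotypes overlapping in both lists.

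Across the 12 Slc2a genes looked at, Slc2a2 made up 54.7% and 54.0% of the summed length-scaled level in the controls, against 49.99% and 51.1% in the knockouts. Nearly all of the rest came from Slc2a5, the fructose transporter GLUT5, at a length-scaled level of 80.1 and 84.3 in control against 85.0 and 85.0 in knockout libraries. Slc2a1 made up between 1.59% and 1.86% and Slc2a3 between 0.187% and 0.306% over the 4 libraries. Slc2a8 was at a level like that of Slc2a1, at 3.10 and 3.12 in control against 3.32 and 3.36 in knockout libraries. Of the 16 other hexose transporters of the Slc2a and Slc5a families, 11 could be tested and 0 were called in either direction (2 at an unadjusted p under 0.05), with a median log2 fold change of -0.21. That median ran from -0.28 to -0.02 with 1 library left out (nearest 0 without knockout replicate 2) and turned to 0.057 with a filter at 50, which leaves fewer genes. Slc2a5 stood at 0.06 ± 0.05 and Slc2a13, which carries myo-inositol, at 0.11 ± 0.10. Slc5a11, Slc5a4a and Slc5a4b had no read in any library, and a count of 0 allows up to 3 reads in a library. The insulin-responsive transporter Slc2a4 (GLUT4), named like Slc2a6 after its values were seen, was close to the lower limit of the test at normalized counts of 11.2 and 8.77 in control against 18.7 and 23.0 in knockout libraries. Both knockout libraries were above the controls, and the log2 fold change was 0.99 ± 0.36 (limma adjusted p = 0.254). Slc2a6 (GLUT6), the other gene with an unadjusted p under 0.05, lay on the opposite side of 0, with normalized counts of 294 and 210.4 in control against 203 and 166 in knockout libraries and a log2 fold change of -0.44 ± 0.18 (limma adjusted p = 0.312).

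Of the hexokinases, Hk1 (ENSMUSG00000037012; chromosome 10, 62268855 to 62379908, minus strand) had normalized counts of 449.6 and 543 in control against 552 and 519 in knockout libraries. The knockout libraries fell inside or just above the range of the controls, and the genotypes overlapped. Its ratio was 1.08-fold (95% interval 0.917 to 1.28), and the log2 fold change 0.11 ± 0.11 (limma adjusted p = 0.696). Without control column 2 the log2 fold change was -0.021, of the opposite sign. Hk1 shares 157 bases of exon with the opposite-strand gene Hk1os, whose normalized count reached at most 4.16.

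Hk2 (ENSMUSG00000000628; chromosome 6, 82725025 to 82774454, minus strand) was barely detected. It was counted with 10 and 9 reads in the control libraries, against 18 and 9 in the knockout libraries. Exact 95% Poisson intervals, which cover counting error only, ran from 4.80 to 18.4 reads for control column 2 and from 10.7 to 28.4 for knockout replicate 1, and they overlapped. The 3 other libraries were alike and knockout replicate 1 was higher. The log2 fold change of 0.40 ± 0.45 (limma adjusted p = 0.763) had an interval that reached from 0.645-fold to 2.69-fold. It was -0.12 without knockout replicate 1 and 0.91 without knockout replicate 2, so a difference in Hk2 was not detectable at this depth.

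The phosphatase side of the step held the most abundant transcript of the list. G6pc2 (ENSMUSG00000005232; chromosome 2, 69211073 to 69227841, plus strand) had normalized counts of 172945 and 178304 in control against 191369 and 175671 in knockout libraries, which is between 0.35% and 0.386% of all reads of a library. The genotypes overlapped, with knockout replicate 1 highest and knockout replicate 2 among the controls. The ratio was 1.04-fold (95% interval 0.933 to 1.17) and the log2 fold change 0.06 ± 0.07 (limma adjusted p = 0.764). With 1 library left out it ran between 0.00055 and 0.12, the lowest without knockout replicate 1 and the highest without knockout replicate 2.

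G6pc3 (ENSMUSG00000034793; chromosome 11, 102189620 to 102194081, plus strand) had normalized counts of 1628 and 1525 in control against 1508 and 1616 in knockout libraries. The genotypes overlapped, and the means of 1576 ± 72.9 and 1562 ± 76.1 (SD, n = 2 each) differed by less than either SD. The ratio was 0.991-fold (95% interval 0.894 to 1.10) and the log2 fold change -0.01 ± 0.07 (limma adjusted p = 0.962), the smallest of the list. It changed sign without control column 2 (0.034), without knockout replicate 1 (0.037) and with upper quartiles made equal (0.0056).

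Slc37a4 (ENSMUSG00000032114; chromosome 9, 44396852 to 44402968, plus strand), which delivers the substrate of these enzymes, had normalized counts of 3405 and 2990 in control against 3263 and 3376 in knockout libraries. Both knockout libraries lay inside the range of the 2 controls. Its ratio was 1.04-fold (95% interval 0.936 to 1.16) and its log2 fold change 0.06 ± 0.07 (limma adjusted p = 0.769), or -0.037 without control column 3. The liver and kidney subunit G6pc had no read in any library. Of 10 further hexose kinases, the G6pc subunit and SLC37 relatives, 8 could be tested and 0 were called (0 at an unadjusted p under 0.05), with a median log2 fold change of 0.01. Slc37a3 stood at -0.01 ± 0.05 and Slc37a1 at -0.11 ± 0.05. Of 11 enzymes that take glucose-6-phosphate further, into glycolysis, the pentose phosphate pathway or glycogen, 0 were called (0 at an unadjusted p under 0.05). Their median was -0.0036, with the isomerase Gpi1 at 0.05 ± 0.05 and the transketolase Tkt at 0.03 ± 0.06.

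Ratios of 2 transcripts within a library do not depend on how libraries are scaled to each other, and are given per length. With 2 libraries per genotype the smallest two-sided p of an exact permutation test is 0.333, so these ratios are descriptions. The ratio of Slc2a2 to Slc2a1 was 34.5 and 29.1 in control against 30.7 and 30.1 in knockout libraries, with the genotypes overlapping. That of Slc2a2 to Slc2a3 was 257 and 288 in control against 179.8 and 167 in knockout libraries, and both knockout libraries were lower. The ratio of Slc2a1 to Slc2a3 was 7.44 and 9.92 in control against 5.86 and 5.55 in knockout libraries, also lower in both knockout libraries. Both ratios divide by Slc2a3, so they hold the Slc2a3 difference given above and are not separate results. G6pc2 exceeded G6pc3 by ratios of 119.8 and 132 in control against 143 and 123 in knockout libraries, overlapping between genotypes. G6pc2 to Slc37a4 gave 73.5 and 86.3 in control against 84.9 and 75.3 in knockout libraries, also overlapping. Hk1 to Hk2 gave 30.8 and 43.3 in control against 20.6 and 42.1 in knockout libraries, a ratio that rests on few Hk2 reads.

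**Figure D3:**
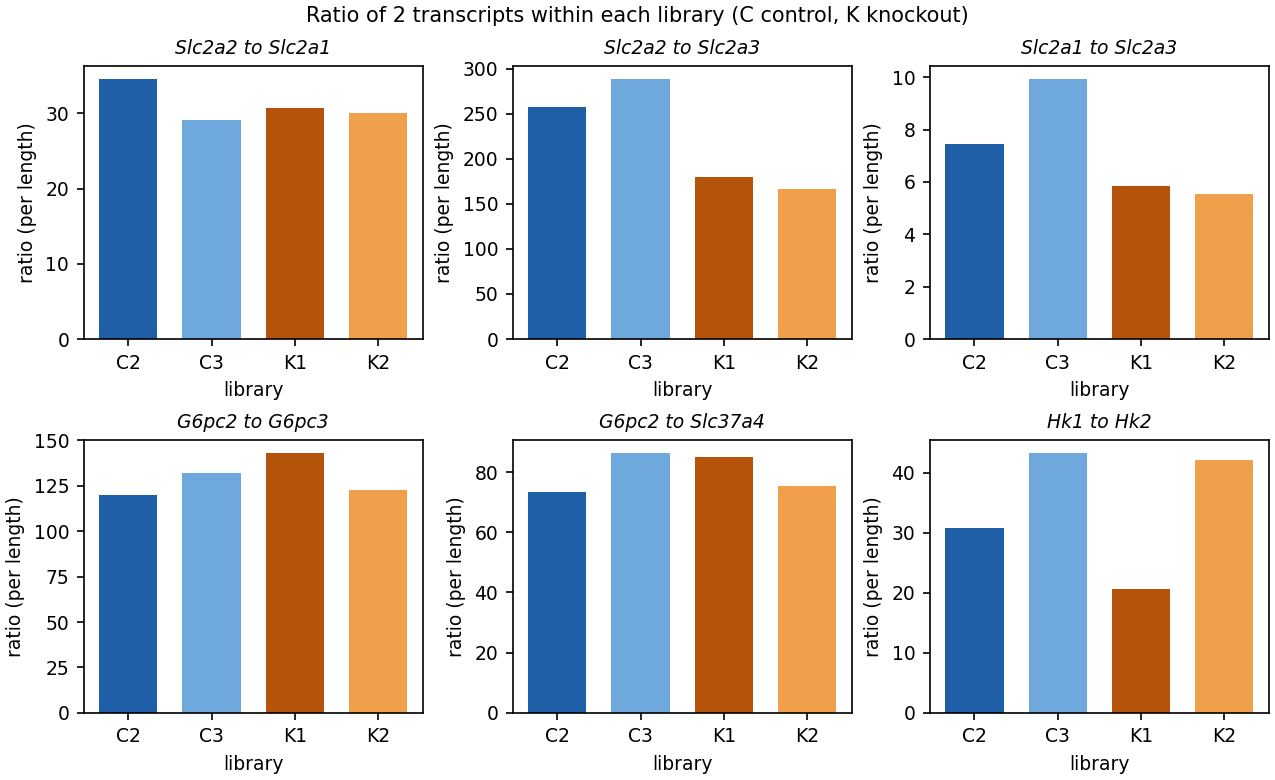
Ratio of length-scaled levels of 2 genes within each library (C2 and C3, control columns; K1 and K2, knockout replicates), 1 panel per ratio, with bars from 0. The ratios to Slc2a3 are lower in both knockout libraries, at 179.8 and 167 for Slc2a2, and the other 4 overlap between genotypes.

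Mlxipl (ENSMUSG00000005373; chromosome 5, 135089890 to 135138382, plus strand), the ChREBP gene, had normalized counts of 8186 and 8004 in control against 7111 and 8048 in knockout libraries. Knockout replicate 1 was below the other 3 libraries and knockout replicate 2 lay between the controls, so the genotypes overlapped. The means were 8095 ± 129 and 7579 ± 663 (SD, n = 2 each), a ratio of 0.935-fold (95% interval 0.847 to 1.03). Its log2 fold change was -0.10 ± 0.06 (limma adjusted p = 0.548). It was -0.0084 without knockout replicate 1 and -0.19 without knockout replicate 2. The gene count does not separate transcripts from the 2 starts that RefSeq annotates. Mlxipl shares 235 bases of exon with the opposite-strand gene Gm43500, which reached a normalized count of at most 4.09.

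Of 4 partners and relatives of ChREBP, 0 were called by limma (1 at an unadjusted p under 0.05; median -0.03). DESeq2 called 1 of them lower, the repressor Mnt, at 2446 and 3027 in control against 2164 and 2180 in knockout libraries normalized counts and -0.33 ± 0.09 in limma (adjusted p = 0.137). Mxd4, a repressor that pairs with MLX, stood at 0.05 ± 0.05 and the ChREBP relative Mlxip at -0.10 ± 0.06. Of 14 genes known as ChREBP targets in liver, fat or islets, 0 were called by limma, edgeR or DESeq2. At an unadjusted p under 0.05 there were 7, beside 2336 of all 16589 tested genes. The median log2 fold change of the 14 was 0.13, or 0.054 without knockout replicate 1 and 0.077 without knockout replicate 2. In 6 of the 14 both knockout libraries were higher, and in 4 both were lower, beside 22.0% and 23.0% of all tested genes. Acly, which makes cytosolic acetyl-CoA, had normalized counts of 66194 and 64790 in control against 59541 and 61002 in knockout libraries, with a log2 fold change of -0.12 ± 0.05. Txnip, a thioredoxin inhibitor that responds strongly to glucose, had normalized counts of 55262 and 45824 in control against 63299 and 56942 in knockout libraries. Its log2 fold change was 0.25 ± 0.09 (limma adjusted p = 0.242). Txnip overlaps the antisense gene Gm15441, at normalized counts of 168 and 162 in control against 198 and 198 in knockout libraries, and reads of the pair cannot be told apart where they overlap unless counting used the strand. Acly and Txnip lay on opposite sides of 0, each without overlap between genotypes. The target with the lowest adjusted p, singled out after its values were seen, was the lipogenic gene Thrsp, with normalized counts of 106 and 71.1 in control against 158 and 162 in knockout libraries and a log2 fold change of 0.87 ± 0.20 (limma adjusted p = 0.0905). Several of these targets also respond to other regulators of lipid synthesis.

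**Figure D4:**
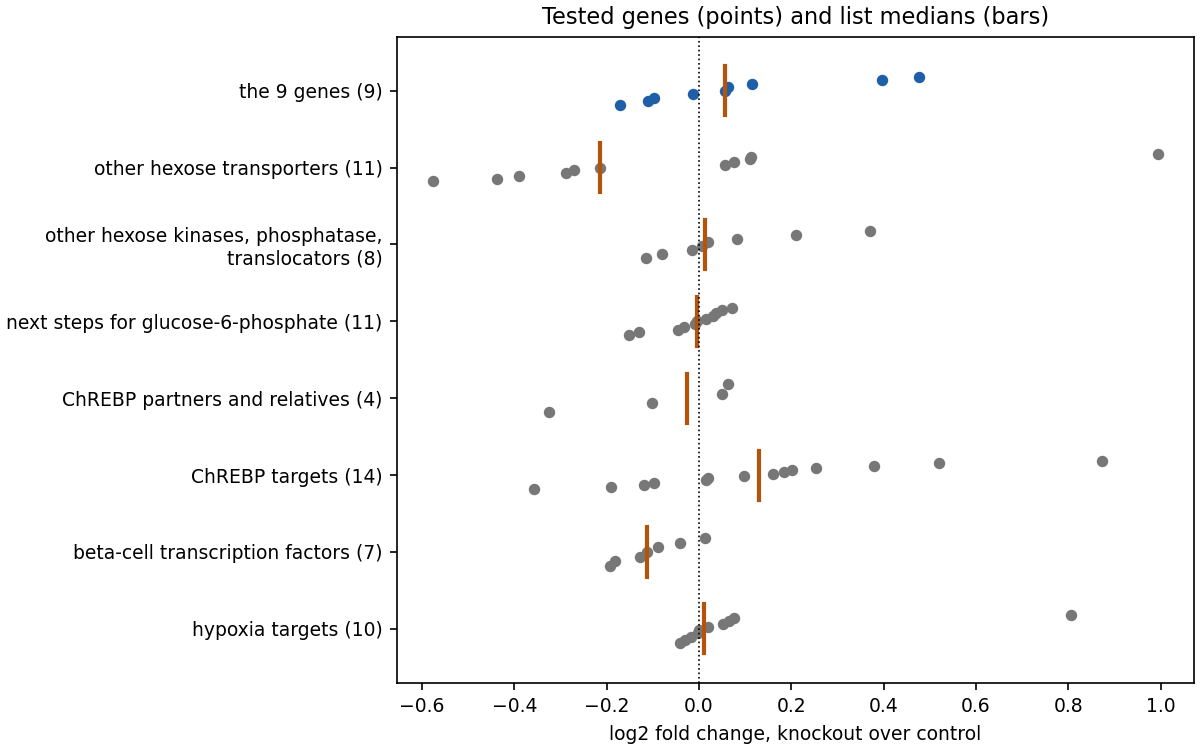
Log2 fold change, knockout over control, of each tested gene (points) of the 9 genes and 7 related lists, with list medians as bars and the number tested in brackets. Medians run from -0.21 for other hexose transporters to 0.13 for ChREBP targets, both nearer 0 in some fits that leave out 1 library, and no gene shown passed the limma test.

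Of 7 transcription factors of beta cells, which include known activators of Slc2a2 and G6pc2, 0 were called (1 at an unadjusted p under 0.05). Their median log2 fold change was -0.11, or -0.012 without control column 3 and -0.18 without control column 2, with Nkx6-1 at -0.09 ± 0.07 and Mafa at -0.13 ± 0.12. Neurod1, named after its values were seen, had normalized counts of 10010 and 10476 in control against 9046 and 9003 in knockout libraries and a log2 fold change of -0.18 ± 0.05 (limma adjusted p = 0.12), beside -0.17 ± 0.05 for Slc2a2. Markers of further islet and exocrine cells had the following values. Alpha-cell markers had a median of 0.48 and summed counts of 1173670 and 1370080 in control against 1665660 and 1382840 in knockout libraries. Acinar markers had a median of -0.66 (-0.31 without knockout replicate 1 and -1.06 without knockout replicate 2), with 0 of 7 tested genes called by limma, edgeR or DESeq2. All 7 had an unadjusted p under 0.05, beside 2336 of all 16589 tested genes. Their summed counts were 10978 and 12547 in control against 5452 and 9367 in knockout libraries. The acinar transcription factors Ptf1a and Rbpjl had normalized counts of at most 1.04 and 3.84. Markers of PP cells (1 gene), duct (5 tested) and red cells (5) had medians of 0.45, 0.16 and 0.36, with 0 called. The PP value was 0.80 without control column 2 and 0.098 without control column 3, and the red-cell median 0.20 without knockout replicate 2. The part of these cells in the values of the 9 genes was not tested.

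**Figure D5:**
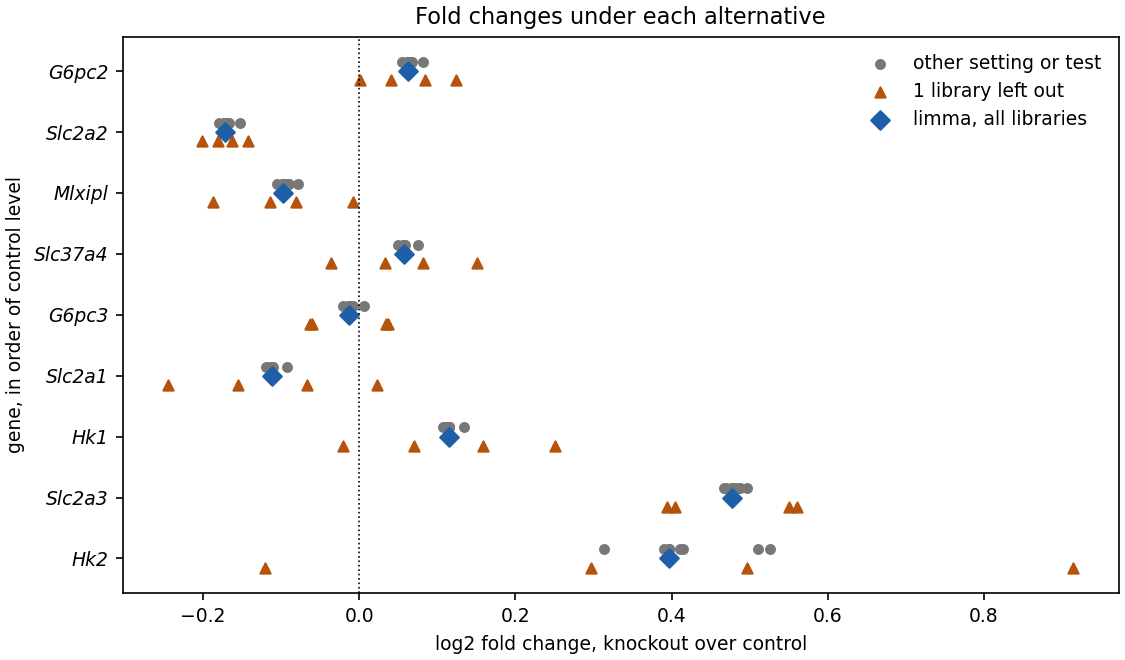
Log2 fold change of each gene with all libraries in limma (diamonds), with 1 library left out (triangles) and under the other settings and count tests (grey points). Slc2a2 stays below 0 and Slc2a3 above 0 throughout, while triangles lie on both sides of 0 for Slc37a4, G6pc3, Slc2a1, Hk1 and Hk2.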

How the data were processed

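Poly(A)-enriched RNA of freshly isolated islets was sequenced with Illumina protocols, per the labels' protocols. Per the submitters' processing notes, the genome build was GRCm38, and the tools named there are DESeq2 1.22.2, featureCounts 1.6.0, STAR 2.5.1b and CASAVA 1.4, with no role given. The annotation and strand setting are not given in the sources used here. The authors deposited 1 table. Per the file headers, its signal values are gene read counts normalized to library size. The authors' log2 fold changes with their errors, test score and p-values stand in the same deposited table, are signed as control over knockout, and were used only where that table is named. Every value (100.0%) was a whole multiple, within 0.01, of the value of 1 read, which gave back whole reads. There were 0 columns of other samples.

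The filter kept genes that reached 10 in 2 or more of the 4 libraries. Values were tested as log2(value + 1) in limma 3.58.1 (R 4.3.3), with a variance trend, two-sided tests and Benjamini-Hochberg adjustment across every gene kept. The pseudocount understates changes of low genes. Fold changes are 2 to the power of the log2 value. Steps were tested on simulated data. edgeR 4.0.16 and DESeq2 1.42.0 on the recovered reads were alternatives. RPKM was computed from the recovered reads, per kilobase of exon union and relative to each library's total reads. Lengths and coordinates are from GENCODE M21 (GRCm38), which holds 99.5% of the identifiers.

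The members, lists and tests were chosen with earlier results of these data known. All 9 genes are named. A list adds its called genes, or its 2 genes with the most reads when none was called. Other genes named for their difference are marked as chosen after their values were seen. Some genes are named without that mark, such as Slc2a8, Ptf1a, Rbpjl, genes with no read and the single beta-cell markers. The calls among alpha-cell markers are not reported here.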

Additional observations from a re-analysis of the deposited data

How the results depend on the processing

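In all 14 alternatives tried (2 pseudocounts, a filter at 50 or none, 2 scalings, limma without the trend or robust, each library left out, edgeR and DESeq2) 0 of the 9 genes were called, as with all libraries in limma. Hk2 could not be fitted with the filter at 50, and DESeq2 gave it no adjusted p. Over the whole table the 41 higher and 62 lower calls became 1 and 1 with no filter, 19 and 32 with the filter at 50, 0 and 0 in limma without the trend (1841 genes at an unadjusted p under 0.05), 85 and 124 with robust empirical Bayes and 120 and 202 in DESeq2. With 1 library left out they ranged from 58 to 207 higher and from 49 to 241 lower, the most without control column 2. The cause was not tested. The direction of 5 genes turned: with 1 library left out the log2 fold change ranged from -0.25 to 0.023 for Slc2a1, -0.063 to 0.037 for G6pc3 (0.0056 with a common upper quartile), -0.021 to 0.25 for Hk1, -0.12 to 0.91 for Hk2 and -0.037 to 0.15 for Slc37a4. The direction of Slc2a2, Slc2a3, G6pc2 and Mlxipl stayed the same in all 14. With the longest coding transcript as the length, mean ratios over the 4 libraries became 126 for Slc2a2 to Slc2a3, 4.23 for Slc2a1 to Slc2a3, 95.4 for G6pc2 to G6pc3, 68.5 for G6pc2 to Slc37a4 and 63.0 for Hk1 to Hk2, since the lengths shrink unequally. The mean ratio of Slc2a2 to Slc2a3 ranged from 201 to 242 with 1 library left out. No paired analysis was possible because the control columns carry numbers that do not match the replicate numbers of the labels. Of the 9 genes Hk2 and then Slc2a3 had the fewest reads, so counting error weighs most on these.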

Other observations

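Hypoxia-inducible genes, a class that includes Slc2a1, Slc2a3 and Hk2, were looked at beside them. Of 11 other genes of this kind 10 could be tested and 0 were called by limma, edgeR or DESeq2 (1 at an unadjusted p under 0.05), with a median log2 fold change of 0.01. Vegfa, the vascular growth factor, stood at -0.02 ± 0.06 and the glycolytic aldolase Aldoa at 0.05 ± 0.05. The prolyl hydroxylase Egln3, chosen after its values were seen, had the largest difference of the list, with normalized counts of 32.7 and 45.8 in control against 70.8 and 66.2 in knockout libraries and a log2 fold change of 0.81 ± 0.24 (limma adjusted p = 0.16).

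The genes whose pattern over the 4 libraries was most like that of Slc2a2, by the root mean square difference of centred log2 values among 8866 genes with a mean of at least 500, were Hspd1 (a mitochondrial chaperonin, 0.00263), AI987944 (0.00301) and Lrig2 (0.0061). For Mlxipl they were Ell (0.00984), Nup62 (0.0101) and Rps6kc1 (0.0107). With only 4 libraries such likeness is common: 805 genes lay within 0.05 of Slc2a2 and 415 within 0.05 of Mlxipl.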
